A study of Mus musculus with 29 samples.

Results

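T cell receptors in brain metastases of a mouse melanoma were compared between the antibody lead-in followed by combination treatment and the lead-in by itself. The 8 samples were chosen by their titles out of 29 samples in all, 19 of them from brain. The lead-in combination had 4 samples at day 3: numbers 12 and 14 in the titles, each with parts 1 and 2. These had received an anti-PD-L1 lead-in and then trametinib together with anti-PD-L1. The lead-in alone had 4 samples at day 0, parts 1 and 2 of numbers 10 and 11, which had received the anti-PD-L1 lead-in only. Both groups thus carried a Braf-mutated melanoma, grown as experimental metastases, and had both been given the lead-in. They differed in the trametinib, in the further anti-PD-L1 and in the day, and the effects of drug and day cannot be told apart. The labels give no strain, age, tumour line or dose, and leave unsaid what the numbers and parts stand for (animals, lesions or pieces). P-values therefore measure only the spread between numbers or samples, which for V and J segments is taken over all 10 brain numbers. Samples are written as number and part, so 12-1 is part 1 of number 12.

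PD-L1 is the ligand of the inhibitory receptor PD-1 on T cells, and antibodies against it release T cells from that inhibition. Trametinib inhibits MEK, a kinase of the MAPK pathway that mutant BRAF drives. Most T cells carry a receptor of an alpha chain (TRA) and a beta chain (TRB). Each chain is made by joining a V and a J segment, with a D segment between them in TRB, and the junction forms the CDR3 loop that touches antigen most variably. Cells that descend from the same T cell share this junction, so a clonotype that takes up a large share of the counts marks an expanded clone, or cells that hold much receptor RNA.

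Clonotypes are here defined by the CDR3 amino acids together with the V and the J segment. The 3 clonotypes of highest mean share in each number carry the comparison, and those with a CDR3 of at most 14 residues are, but for 1, written out first, since the later values refer to them. In number 12 (lead-in combination) these were 1 TRB and 2 TRA clonotypes.
TRBV23 TRBJ2-7, number 12: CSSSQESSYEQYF
TRAV7D-2 TRAJ49, number 12: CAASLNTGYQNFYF
TRAV7D-2 TRAJ23, numbers 10, 11, 12 and 14: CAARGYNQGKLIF

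In number 14 (lead-in combination) 2 of the 3 TRB and all 3 TRA clonotypes were short enough to write.
TRBV2 TRBJ2-7, number 14: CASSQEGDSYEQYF
TRBV19 TRBJ2-7, number 14: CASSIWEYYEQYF
TRAV7D-2 TRAJ22, number 14: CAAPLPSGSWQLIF
TRAV16D/DV11V16N TRAJ30, number 14: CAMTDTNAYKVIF
TRAV7D-2 TRAJ43, number 14: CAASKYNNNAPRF

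In numbers 10 and 11 (lead-in alone) the leading clonotypes beside TRAV7D-2 TRAJ23 included the following.
TRBV12-2 TRBJ2-2, number 10: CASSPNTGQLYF
TRAV7D-2 TRAJ22, number 10: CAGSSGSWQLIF
TRBV20 TRBJ2-7, number 11: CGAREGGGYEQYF
TRBV13-2 TRBJ2-7, number 11: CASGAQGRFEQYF
TRBV12-1 TRBJ2-7, number 11: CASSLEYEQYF
TRAV14-2V14N-2 TRAJ17, number 11: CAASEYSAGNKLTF
TRAV7D-2 TRAJ26, number 11: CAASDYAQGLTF

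The other leading TRB clonotypes had longer CDR3 loops. In number 14 the largest of all was TRBV29 TRBJ2-1 with 16 residues. Joined names such as TRAV14-2V14N-2 stand for V segments that the table did not separate. Many mouse TRAV segments exist in near-identical copies (the D and N series), so how counts divide between copies such as TRAV7-2 and TRAV7D-2 is uncertain.

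Brain metastases of the lead-in combination yielded more receptor counts. TRB counts were 6073, 6238, 7067 and 4148 in samples 12-1, 12-2, 14-1 and 14-2, against 266, 672, 5317 and 1273 in 10-1, 10-2, 11-1 and 11-2. TRA counts were 8893, 9389, 8034 and 5192, against 230, 700, 6782 and 1292 in the same order. The groups overlapped through 11-1 alone, which lay above 14-2 for both chains. On the scale of log2 counts averaged over the parts of a number, the combination was 2.46 higher for TRB, or 5.50-fold between geometric means, and 2.82 higher for TRA, or 7.05-fold. Each combination number lay above each lead-in number, in 4 of 4 pairs. This difference did not pass the test for either chain (exact two-sided permutation p = 0.333 over numbers, adjusted p = 0.476 over 10 measures), and with 2 numbers a group 0.333 is the smallest p the design allows. With each sample as its own unit the exact p was 0.0571 (adjusted p = 0.114 over 8 measures), where 0.0286 is the smallest possible, but the parts are not independent and this p is too small. The TRB difference had an adjusted p between 0.114 and 0.833 in the alternatives run. Without number 10 the differences were 1.15 (TRB) and 1.38 (TRA), and without number 11 they were 3.77 and 4.26.

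In a bulk sample, fewer T cells and less receptor RNA per cell cannot be told apart, and the amount of RNA put into each library is not given. The ratio of TRA to TRB counts differed along with the totals. It was 1.46, 1.51, 1.14 and 1.25 in the combination and 0.865, 1.04, 1.28 and 1.01 in the lead-in samples, and 11-1, the deepest lead-in sample, had the highest ratio of its group. Across the other 11 brain samples, TRB counts ran from 302 in an untreated sample to 3195 in one that had received trametinib and anti-PD-L1 without a lead-in, below all 4 samples of the combination. Library index numbers in the labels are 13 to 16 for the lead-in samples and 21 to 24 for the combination, so library order and group cannot be told apart either.

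**Figure D1:**
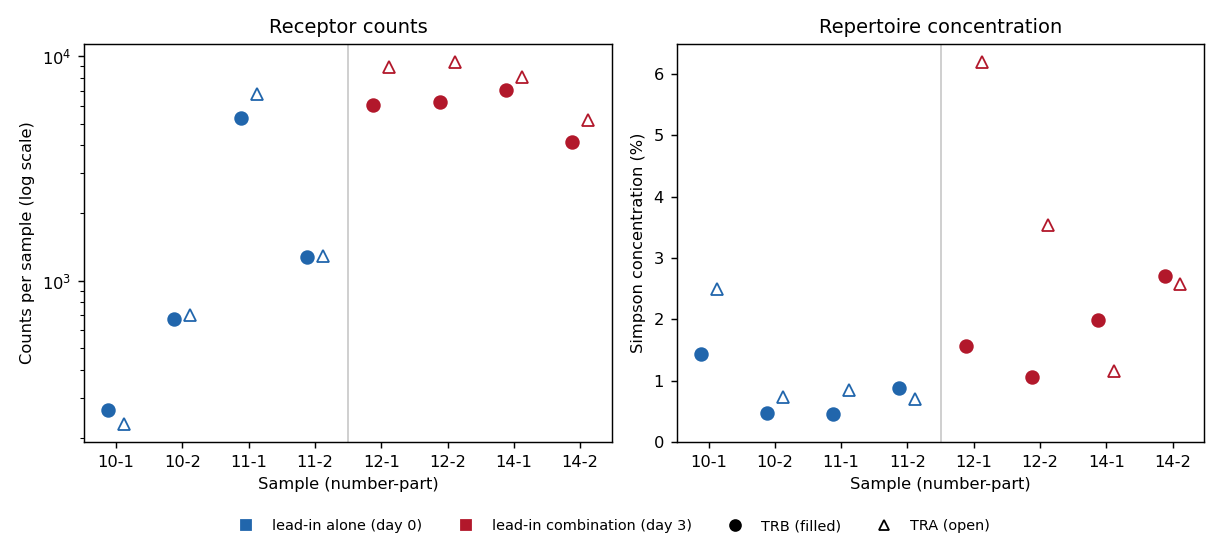
Left, TRB (filled circles) and TRA (open triangles) counts of each sample on a log axis; right, the Simpson concentration of the same repertoires in percent. Blue marks the lead-in alone and red the lead-in combination; sample 11-1 reached 5317 TRB counts, within the range of the combination samples, and TRA concentration was highest in 12-1 at 6.20%.

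The repertoire was also more concentrated in the combination, meaning that fewer clonotypes held more of the counts. The unbiased Simpson concentration, the chance that 2 counts drawn at random belong to the same clonotype, does not rise or fall on average with the number of independent counts drawn. For TRB it was 1.56%, 1.07%, 1.99% and 2.70% in 12-1, 12-2, 14-1 and 14-2, against 1.43%, 0.476%, 0.456% and 0.887% in 10-1, 10-2, 11-1 and 11-2. Only 10-1, the sample with the fewest counts, reached into the range of the combination. The means were 1.83% ± 0.694 and 0.812% ± 0.457 (SD, n = 4 samples each), a difference of 1.02 percentage points that was seen in 4 of 4 pairs of numbers (exact permutation p = 0.333, adjusted p = 0.476). As effective numbers of equal clonotypes these are 64.1, 93.8, 50.3 and 37.0 in the combination and 69.9, 209.9, 219.5 and 112.7 in the lead-in samples.

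TRA behaved alike in direction, with 6.20%, 3.53%, 1.16% and 2.58% in the combination and 2.49%, 0.739%, 0.846% and 0.709% in the lead-in samples. The mean difference was 2.17 points (exact permutation p = 0.333, adjusted p = 0.476). Number 12 made up most of it, and without number 12 the difference was 0.678 points. For TRB the difference was 0.501 points without number 14 and 1.53 points without number 12. In the other brain samples concentration ran from 0.236% to 1.49% for TRB and from 0.533% to 1.75% for TRA. The highest of these values lay above 12-2 for TRB and above 14-1 for TRA. The 10 largest TRB clonotypes held 29.5% ± 3.88 of the counts in the combination and 19.6% ± 6.61 in the lead-in samples, and the 10 largest TRA clonotypes 34.1% ± 7.50 and 24.7% ± 11.7 (SD, n = 4 samples each). Neither passed the test (exact permutation p = 0.333, adjusted p = 0.476 for both). The TRB difference of 9.82 points was 6.29 without sample 10-2 and 15.8 with the parts of a number summed. With 1 sample or number left out at a time, the TRA difference of 9.44 points ranged from 3.56 (without number 11) to 15.3 (without number 10), and it was 15.6 with parts summed.

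Richness at equal depth did not separate the groups. Thinned to 266 counts, the lowest total, samples held 159.5, 177.9, 155.7 and 150.0 expected TRB clonotypes in the combination and 79, 158.5, 189.4 and 145.2 in the lead-in samples. Sample 10-1 stood apart with 79 clonotypes in all its counts, and the other 7 samples overlapped. The log2 difference was 0.24 for TRB (exact permutation p = 0.667, adjusted p = 0.741) and 0.28 for TRA (exact permutation p = 1, adjusted p = 1). It turned to -0.02 for both chains without sample 10-1.

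Single clonotypes reached higher shares in the combination for TRB. The largest TRB clonotype held 8.83%, 7.23%, 11.8% and 14.3% of the counts in the 4 combination samples and 3.38%, 1.64%, 2.73% and 4.08% in the lead-in samples, without overlap. Exact Clopper-Pearson 95% intervals, which cover counting error only, ran from 6.60% to 7.90% in 12-2, the lowest of the combination, and from 3.07% to 5.32% in 11-2, the highest of the lead-in samples. In 10-1 the interval was 1.56% to 6.33%. These values belong to different receptors in each number, which are described next. For TRA the largest shares were 23.8%, 17.6%, 7.21% and 9.57% against 6.52%, 3.43%, 6.84% and 3.72%. These did not overlap either, though 14-1 and 11-1 were close, with intervals of 6.65% to 7.79% and 6.25% to 7.47%.

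**Figure D2:**
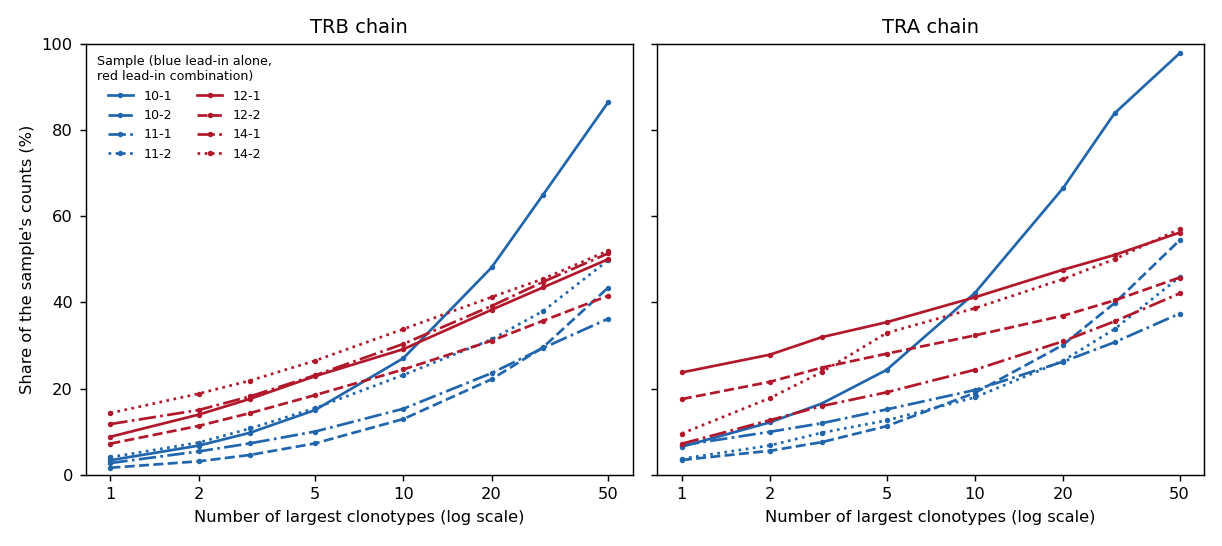
Share of a sample's counts (percent) held by its largest clonotypes, from 1 to 50 clonotypes on a log axis, for TRB (left) and TRA (right); red lines are lead-in combination samples and blue lines lead-in alone. For TRB the red lines start between 7.23% and 14.3% and the blue lines between 1.64% and 4.08%, while 10-1, with 79 TRB clonotypes in all, crosses the others further along.

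In number 12 the leading beta chain was TRBV23 TRBJ2-7, with 536 counts in 12-1 and 451 in 12-2, a mean share of 8.03%. It was followed by TRBV3 TRBJ2-3 (15 residues) at 4.63% and TRBV5 TRBJ1-4 (15 residues) at 2.95%. None of these 3 had a count in the other 3 numbers or in the other 11 brain samples. The leading alpha chain was TRAV7D-2 TRAJ49 (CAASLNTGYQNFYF), with 2113 and 1650 counts and a mean share of 20.7%, the highest share of any clonotype in the 8 samples. TRAV6N-6 TRAJ32 (16 residues) held 4.03%, and TRAV7D-2 TRAJ23, found in all 4 numbers, held 3.71%.

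In number 14 the leading beta chain was TRBV29 TRBJ2-1 (16 residues), with 832 and 594 counts, or 11.8% and 14.3%. TRBV2 TRBJ2-7 held 3.17% and 3.04% of the 2 parts, and TRBV19 TRBJ2-7 held 1.67% and 4.51%. Alpha chains were more even, led by TRAV7D-2 TRAJ22 at 6.86%, TRAV16D/DV11V16N TRAJ30 at 6.61% and TRAV7D-2 TRAJ43 at 5.65%. The last of these differed most between the parts, with 1.73% in 14-1 and 9.57% in 14-2. None of these 6 clonotypes was found in numbers 10, 11 or 12, whose largest clonotypes were others. Chains were sequenced apart, so which alpha chain belongs to which beta chain is not known.

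The lead-in numbers had no clonotype of comparable share in TRB. In number 10 the first 2, TRBV19 TRBJ2-3 (15 residues) and TRBV12-2 TRBJ2-2, each had 9 counts in 10-1 and none in 10-2. TRBV5 TRBJ2-4 (16 residues) had 5 and 10 counts, a mean share of 1.68%, and was the only TRB clonotype at 1% or more in both parts. In number 11 TRBV20 TRBJ2-7 had 143 and 52 counts (3.39%), TRBV13-2 TRBJ2-7 145 and 27 (2.42%) and TRBV12-1 TRBJ2-7 65 and 43 (2.30%). Among alpha chains TRAV7D-2 TRAJ23 led in both numbers by mean share, at 3.45% and 4.89%. The next in number 10 were TRAV7D-2 TRAJ22 at 3.26% and TRAV14-1V14N-1 TRAJ52 (13 residues) at 2.83%, both absent from 10-2, and in number 11 TRAV14-2V14N-2 TRAJ17 at 2.54% and TRAV7D-2 TRAJ26 at 2.23%. A count of 0 in 10-2 allows a share of up to 0.446% for TRB and 0.429% for TRA.

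The 2 parts of a combination number held nearly the same leading clonotypes, and those of the lead-in numbers less so. The Morisita-Horn index, which compares 2 repertoires by the shares of their common clonotypes and is led by the large ones, was 91.5% for TRB in number 12 and 92.0% in number 14. It was 3.83% in number 10 and 52.4% in number 11. For TRA it was 94.8%, 74.3%, 7.86% and 47.2% in numbers 12, 14, 10 and 11. Of the 20 largest TRB clonotypes of 1 part, the other part held 20 and 20 in number 12, 20 and 19 in number 14, 2 and 1 in number 10, and 16 and 13 in number 11. Parts of the combination shared 265 and 215 TRB clonotypes, and those of the lead-in 5 and 88. The shared ones were 25.1% and 21.9% of the TRB clonotypes of parts 1 and 2 in number 12, and 21.6% and 30.4% in number 14. In number 10 they were 6.33% and 2.05%, and in number 11 they were 8.71% and 31.0%, the last being the highest. No test was made, with 2 numbers a group.

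Of the 4 numbers, number 10 had both the fewest counts (266 and 672) and the lowest index, and the part of depth in the result was not tested. The unbiased Morisita index, which corrects for the counts drawn and was chosen after seeing the data, gave 92.6%, 92.8%, 4.87% and 56.1% for TRB in numbers 12, 14, 10 and 11. By the same unbiased index the other brain numbers had 19.9% (number 8, trametinib, 527 and 354 counts), 32.4% (number 13, trametinib, 689 and 635) and 10.6% (number 3, untreated, 302 and 320). The numbers given trametinib and anti-PD-L1 without a lead-in had 14.4% (number 6, 1300 and 1527 counts) and 36.6% (number 1, 1373 and 3195). Numbers 12 and 14 had the most TRB counts and the highest indices. For TRB, number 6 had more counts than numbers 8 and 13 and a lower index. This did not hold for TRA, where number 6 had 39.8% by the unbiased index, against 30.3% and 38.3% in numbers 8 and 13. Untreated number 3 had a TRA index of 44.4%, and number 1 had 73.1%. In numbers 12, 14, 10 and 11 the TRA index was 95.03%, 74.9%, 9.24% and 50.02%. Number 1, without a lead-in, thus came close to number 14 of the combination for TRA, though not for TRB. A chi-square between the parts, over TRB clonotypes with enough counts, was 6.50, 8.47, 4.06 and 8.67 times its degrees of freedom in numbers 12, 14, 10 and 11. The value of number 10 rests on 3 clonotypes, and the chi-square treats counts as independent, so PCR copies would raise it.

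**Figure D3:**
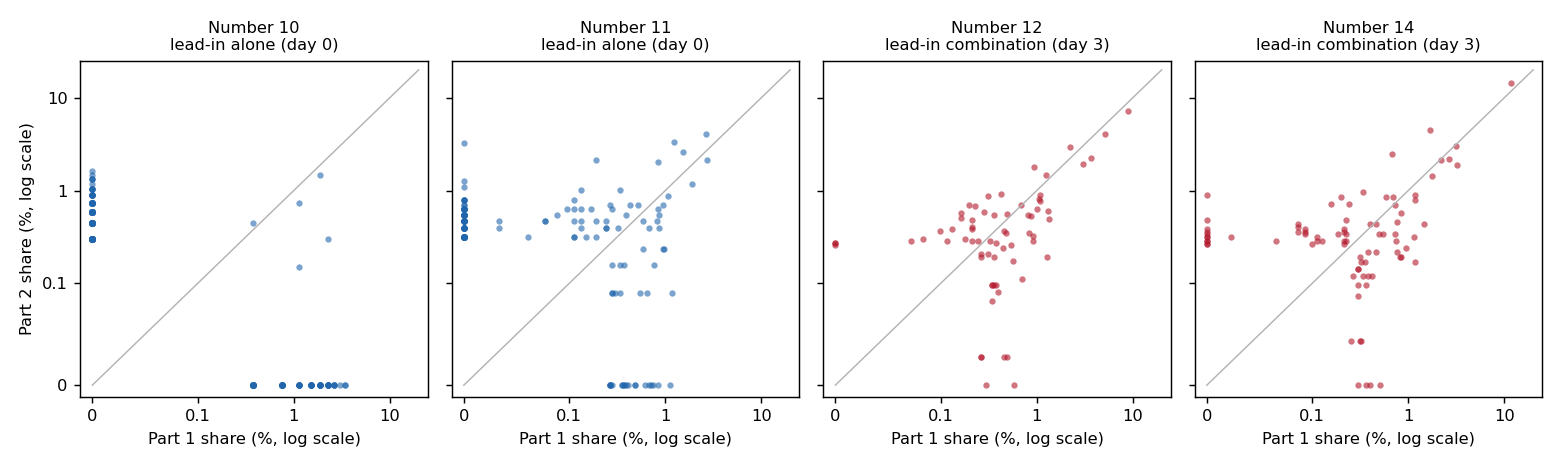
Share of each TRB clonotype in part 1 (horizontal) and part 2 (vertical) of each number, in percent on log axes with absent clonotypes set at 0, for clonotypes at 0.25% or more in either part; the grey line marks equal shares. In numbers 12 and 14 the largest clonotypes lie near the line, while in number 10 nearly all points lie on the axes and 5 TRB clonotypes are shared.

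Between numbers the beta repertoires had almost nothing in common, whatever the treatment. Over the 16 pairs of samples from different groups the TRB index ran from 0% to 2.11%, and over the 8 pairs from different numbers of 1 group from 0% to 0.795%. Alpha repertoires overlapped more, from 3.31% to 23.9% between groups and from 4.15% to 28.9% within a group. With both groups pooled, sharing a treatment did not go with a higher median index, which was 6.13% within groups and 7.85% between them for TRA. The groups were unlike in this, but in a direction that depended on the measure. By the Morisita-Horn index TRA pairs within the combination ran from 4.15% to 6.35%, and those within the lead-in alone from 5.90% to 28.9%. By the shared share of counts (the sum of the smaller share of each clonotype) the order turned. It ran from 5.57% to 7.26% within the combination and from 3.56% to 5.83% within the lead-in alone. The pairs share samples, so no test was made.

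**Figure D4:**
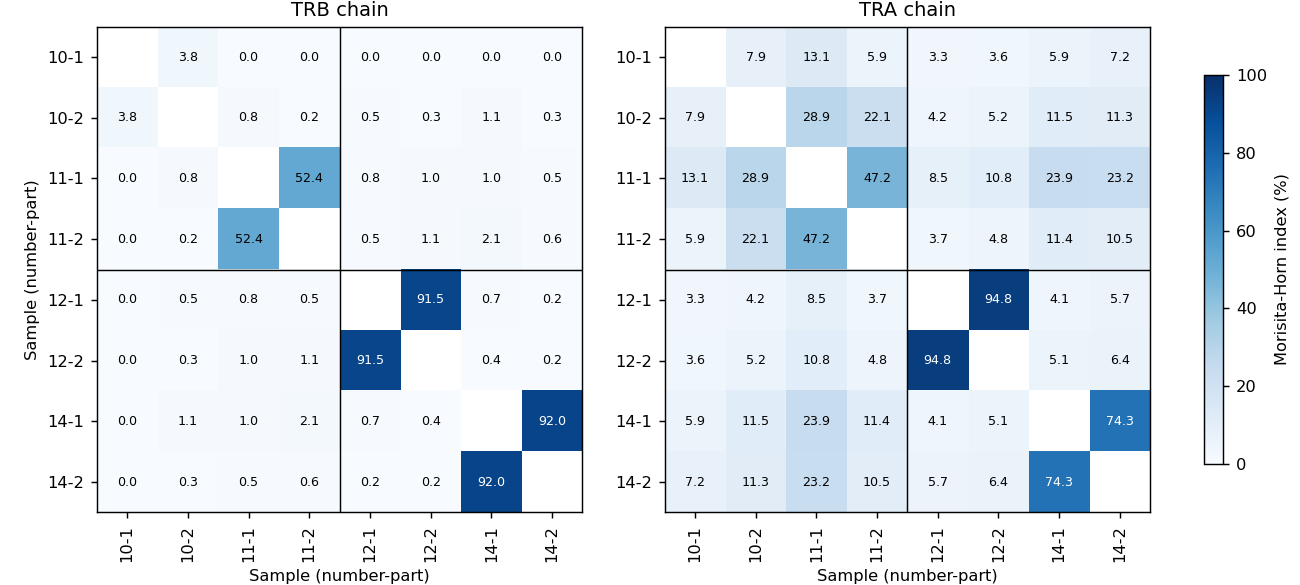
Morisita-Horn index (percent) between all pairs of the 8 samples for TRB (left) and TRA (right), with black lines separating lead-in alone from the lead-in combination. High values appear between parts of numbers 11, 12 and 14, and TRB values between different numbers stay at or below 2.11%.

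Of 4941 TRB clonotypes in the 8 samples, 98.7% occurred in 1 number, 56 in 2 numbers, 7 in 3 numbers and none in all 4. The TRB clonotypes of highest summed count among those in 3 numbers were these, shown as the most abundant beta chains common to several numbers.
TRBV12-1 TRBJ2-7: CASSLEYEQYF
TRBV1 TRBJ1-1: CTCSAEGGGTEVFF
TRBV13-1 TRBJ2-3: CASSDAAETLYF
TRBV5 TRBJ2-7: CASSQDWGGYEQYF
TRBV20 TRBJ2-7: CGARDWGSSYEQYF

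TRBV12-1 TRBJ2-7 held 2.30% of number 11, 0.52% of number 14 and 0.081% of number 12. TRBV1 TRBJ1-1 held 0.62% and 0.73% of numbers 12 and 14, and 0.30% of number 10 on 4 counts. Shared beta chains were a minor part of each repertoire. Clonotypes private to 1 number held 95.4%, 95.0%, 97.1% and 92.8% of TRB counts in numbers 12, 14, 10 and 11.

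More alpha chains were shared. Of 5032 TRA clonotypes 97.5% were private, 99 lay in 2 numbers, 24 in 3 and 4 in all 4 numbers. Private clonotypes held 88.7%, 85.6%, 84.1% and 83.5% of TRA counts in numbers 12, 14, 10 and 11. The clonotypes in at least 3 numbers with the highest summed count are shown next, without the second of them, TRAV11N TRAJ18, whose CDR3 has 15 residues.
TRAV7D-2 TRAJ23: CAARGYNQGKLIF
TRAV14-1V14N-1 TRAJ16: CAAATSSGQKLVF
TRAV14-2V14N-2 TRAJ23: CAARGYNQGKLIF
TRAV14-2V14N-2 TRAJ23: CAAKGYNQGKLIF

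By mean share of the parts, TRAV7D-2 TRAJ23 with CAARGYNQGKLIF was the commonest receptor chain of the lead-in numbers. In the combination numbers it was among the 4 largest of the alpha chains. It had 367, 309, 262 and 286 counts in 12-1, 12-2, 14-1 and 14-2, and 8, 24, 464 and 38 counts in 10-1, 10-2, 11-1 and 11-2. As a share these were 4.13%, 3.29%, 3.26% and 5.51%, against 3.48%, 3.43%, 6.84% and 2.94%, and the groups overlapped. It was also found in 9 of the other 11 brain samples. The same CDR3 occurred with TRAV14-2V14N-2, TRAV7-2 and TRAV14D-1, each in 3 of the 4 numbers. By mean share of the parts, TRAV7D-2 TRAJ23 was smaller than a private chain in both combination numbers. In both lead-in numbers it was the largest TRA clonotype by that measure, but not in each part. Within 10-1 it was smaller than the private TRAV7D-2 TRAJ22, with 8 counts against 15. Within 11-2 it was smaller than the private TRAV14-2V14N-2 TRAJ17, with 38 counts against 40. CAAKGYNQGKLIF on TRAV14-2V14N-2, also found in all 4 numbers, held 0.033% and 0.082% in numbers 12 and 14 against 1.07% and 2.00% in numbers 10 and 11, on 15 counts of 10-2 in number 10.

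Brain and ovary metastases had both been sampled for numbers 12 and 10, so that brain clonotypes could be looked up in a second organ. The ovary of number 12 held 41573 TRB counts and that of number 10 held 81190. Clonotypes found in the ovary of the same number made up 68.0% of TRB counts in 12-1 and 58.3% in 12-2. They made up 28.6% in 10-1 and 45.8% in 10-2, although the ovary of number 10 was the more deeply sequenced. With each clonotype counted once, 30.1% and 23.8% of the TRB clonotypes of 12-1 and 12-2 were found there. In 10-1 and 10-2 these were 31.6% and 43.4%, so number 12 was higher by counts and not by clonotypes. The ovary of the other number held clonotypes that made up 0% to 10.1% of TRB counts over the 8 brain samples. All 13 and all 7 TRB clonotypes at 1% or more of 12-1 and 12-2 were found in the ovary, and 13 of 43 and 6 of 12 in 10-1 and 10-2. At 266 counts, 1% is reached with 3 counts, so the clonotypes of 10-1 that pass it are not large in number of counts.

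The leading clones of number 12 were large in its ovary too. TRAV7D-2 TRAJ49 had 8016 and 7219 counts in the 2 ovary samples, 29.0% and 30.8% of TRA. TRBV23 TRBJ2-7 had 1009 and 1212 counts, 4.45% and 6.42% of TRB, against 8.83% and 7.23% in brain. TRBV3 TRBJ2-3 was lower in ovary, at 0.679% and 0.832%. In number 10 the ovary held neither TRBV19 TRBJ2-3 nor TRBV12-2 TRBJ2-2, but TRBV5 TRBJ2-4 had 1166 and 1159 counts there (2.26% and 3.93%). With 1 number per treatment, no test of the difference was made.

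V segment usage gave no call. Of 99 V segments tested, 0 passed the adjusted threshold of 0.05 in edgeR's quasi-likelihood test (0% called), 4 had an unadjusted p under 0.05, and DESeq2 called 0 as well. In the fit 36 segments were higher in the combination, and the median log2 difference was -0.25. The lowest adjusted p was 0.515, shared by TRAV7D-2, TRBV16, TRAV6D-5V6N-5 and TRAV15N-1, so the segments named here are described as not past the threshold. Without the filter on low counts TRAV7D-2 passed (edgeR adjusted p = 0.00942 over 155 segments), and the adjusted p of TRAV7D-2 over all alternatives ran from 0.00942 to 0.998.

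TRAV7D-2 was the most used V segment of the alpha chain. It held 34.9%, 27.4%, 17.4% and 28.2% of TRA counts in 12-1, 12-2, 14-1 and 14-2, and 19.6%, 7.71%, 16.8% and 11.5% in 10-1, 10-2, 11-1 and 11-2. The samples overlapped only through 14-1 and 10-1, and summed by number the shares were 31.0% and 21.6% against 10.6% and 15.9% (log2 difference 0.98 ± 0.32, SE). With the largest clonotype of each chain and library left out, the fitted log2 difference was 1.02. TRAV7D-2 then held 13.2%, 23.2%, 7.46% and 10.4% in numbers 12, 14, 10 and 11. The TRA clonotype left out carried TRAV7D-2 in numbers 12, 10 and 11, but TRAV16D/DV11V16N in number 14. TRAV7D-2 TRAJ22, at 6.86%, therefore stayed in number 14, and the 1.02 is not free of large clones. Counting each clonotype once, so that clone size has no weight, TRAV7D-2 held 6.94%, 6.70%, 5.99% and 5.87%, a log2 difference of 0.21.

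TRBV16 lay lower in the combination in every sample, at 4.63%, 5.23%, 5.60% and 3.62% against 10.9%, 8.04%, 11.9% and 7.46%. By number the shares were 4.90% ± 0.0439 and 9.96% ± 1.57 (SD, n = 2 numbers each). The log2 difference was -1.03 ± 0.37 (SE), with an adjusted p of 0.515 in edgeR and of 0.113 to 0.965 in the alternatives. Counted once per clonotype, TRBV16 held 8.25%, 8.14%, 9.75% and 10.8% in numbers 12, 14, 10 and 11, a log2 difference of -0.36. TRAV6D-5V6N-5 lay lower too, at 2.04% and 2.31% against 5.81% and 4.76% (log2 difference -1.28 ± 0.49, SE), and the samples did not overlap. TRAV15N-1 had 0.304%, 0.479%, 0.0747% and 0.0770% in the combination and no counts in the lead-in samples. A count of 0 there allows up to 1.30%, 0.429%, 0.0442% and 0.232%. Only numbers 12 and 14 reached the 10 counts of the filter, so TRAV15N-1 was tested through the group where it was high. Its low p is therefore no support for a difference. TRAV15-1/DV6-1 was found in number 11 at 0.644% and in number 14 at 0.0756%, and not in numbers 12 and 10.

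The 5 beta V segments of highest mean share were TRBV3, TRBV19, TRBV29, TRBV13-2 and TRBV16. TRBV29 held 3.83% of number 12 and 16.7% of number 14, against 7.36% and 8.06% in the lead-in numbers. Without the largest clonotypes its share in number 14 was 4.57%, and its log2 difference turned from 0.41 to -0.86. TRBV19 differed as much within groups as between them, with 7.59%, 6.96%, 9.82% and 13.1% in the combination samples against 15.0%, 11.8%, 5.53% and 7.78% in the lead-in samples. TRBV3 held 13.2% and 8.28% against 9.81% and 8.09%, and TRBV1 6.51% and 5.04% against 5.12% and 7.21%. TRBV23, the segment of the leading clone, took 9.37% of number 12 and 0.152% of number 14. After TRAV7D-2 the most used alpha segments were TRAV14-2V14N-2, TRAV16D/DV11V16N, TRAV8-1V8D-1 and TRAV6D-5V6N-5. TRAV16D/DV11V16N held 9.10% of number 14 and 1.53% to 3.98% of the other numbers.

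**Figure D5:**
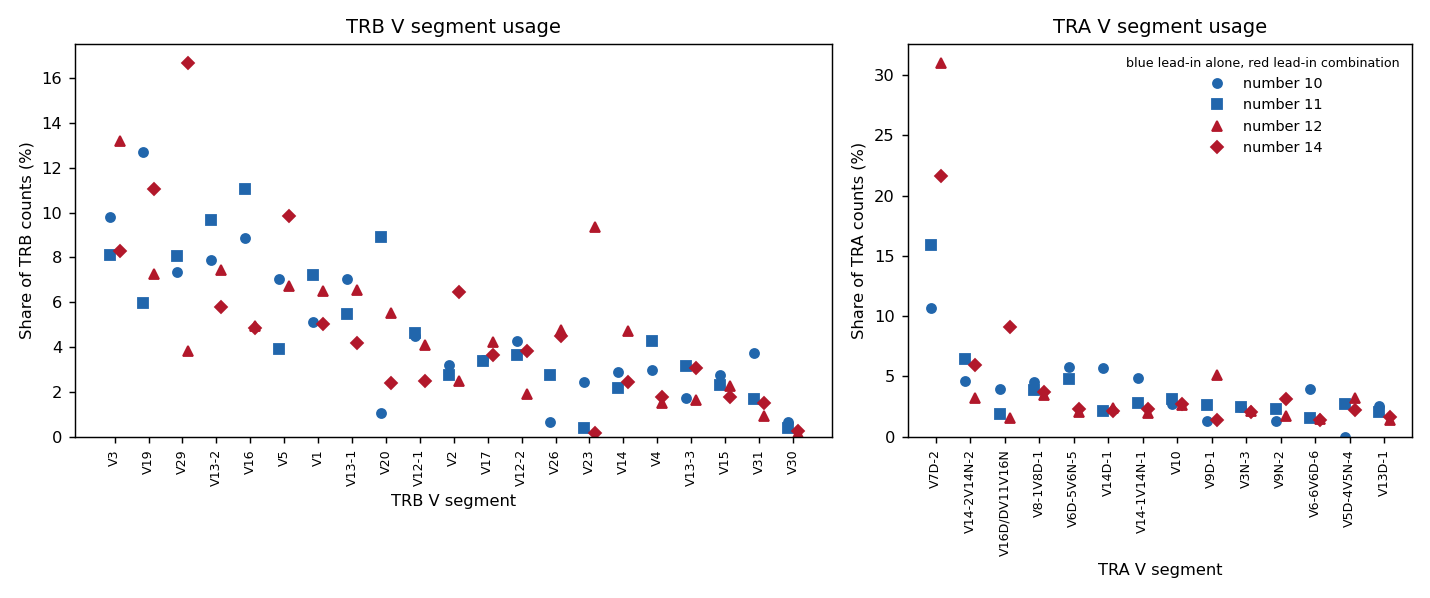
Share of counts (percent) of V segments in numbers 10 and 11 (blue, lead-in alone) and 12 and 14 (red, lead-in combination), for the TRB segments (left) and the 14 TRA segments of highest mean share (right), parts of a number summed. TRAV7D-2 was higher and TRBV16 lower in both combination numbers, and TRBV29 and TRBV23 were each high in a single number.

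Family directions depended on the scaling. With TMM in place of chain totals the median log2 difference over all 99 V segments moved from -0.25 to 0.18, and the number of segments higher in the combination from 36 to 57, so the families are given under both, chain totals first. Both TRBV12 segments were lower either way (medians -0.46 and -0.23), and of 8 TRAV12 segments 7 and 6 were lower (medians -1.10 and -0.65). The 3 TRBV13 segments (once Vbeta8) were lower in 3 and in 2 cases (medians -0.22 and -0.01), and held 14.3% ± 1.82 against 17.5% ± 1.18 of TRB counts (SD, n = 2 numbers each). All 8 TRAV14 segments were lower by chain totals and 4 of 8 with TMM (medians -0.47 and 0.01), where TRAV14-2V14N-2 turned higher. Of 15 TRAV7 segments 6 and 9 were higher (medians -0.25 and 0.15), while the family took up 34.7% ± 6.50 of TRA in the combination and 22.6% ± 4.49 in the lead-in alone (SD over 2 numbers each) through TRAV7D-2. TRAV6 had 4 and 5 of 9 segments higher (medians -0.12 and 0.26), and TRAV9 had 2 of 4 higher under both (medians -0.31 and 0.18). None of these segments passed the test. Shares within a chain sum to a whole, so a higher share of TRAV7D-2 goes with lower shares of others.

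J segments gave no call either. Of 53 tested, edgeR's quasi-likelihood test called 0 (0% called, 1 with an unadjusted p under 0.05), as did DESeq2, and 22 were higher in the combination with a median log2 difference of -0.21 (35 and 0.21 with TMM). The lowest adjusted p was 0.653. TRBJ2-1 held 7.98% and 19.1% of numbers 12 and 14 against 6.50% and 8.44% of numbers 10 and 11 (log2 difference 0.85), and TRAJ49 held 22.7% and 1.04% against 5.70% and 2.14% (1.64). Each was high in the single number whose leading clonotype used it: TRBV29 TRBJ2-1 in number 14 and TRAV7D-2 TRAJ49 in number 12. Leaving out number 12, edgeR's test called TRBJ2-1 (log2 difference 1.34, adjusted p = 0.0241), and leaving out number 14 it called TRAJ49 (2.58, adjusted p = 1.25e-05). Among all alternatives TRBJ2-1 had adjusted p-values of 0.0241 to 0.944 and TRAJ49 of 1.25e-05 to 0.943. TRAJ37 was lower, at 2.44% and 2.56% against 6.13% and 3.78%. Of the 6 TRBJ1 segments 2 were higher and of the 6 TRBJ2 segments 4 (4 and 5 with TMM), the TRBJ2 cluster holding 72.9% ± 4.49 against 66.8% ± 4.56 of TRB counts (SD, n = 2 numbers each).

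The TRB CDR3 was slightly longer in the combination, with count-weighted means of 14.03, 13.95, 14.20 and 14.27 residues in 12-1, 12-2, 14-1 and 14-2 against 13.85, 13.98, 13.78 and 13.66 in 10-1, 10-2, 11-1 and 11-2. The groups overlapped through 12-2 and 10-2. The difference was 0.296 residues (exact permutation p = 0.333, adjusted p = 0.476), 0.174 without number 14, and 0.0326 with each clonotype counted once. Loops of 16 residues held 17.4% and 19.9% of TRB counts in 14-1 and 14-2, where the TRBV29 TRBJ2-1 clonotype of that length lay, and 3.68% to 12.4% in the other samples.

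Innate-like T cells were a small part of each repertoire. The alpha chain of mouse invariant natural killer T cells, a lipid-recognising lineage, is a near-fixed joining of TRAV11 with TRAJ18. TRAV11 or TRAV11D with TRAJ18 held 0.0337%, 0.160%, 0.0871% and 0.404% of TRA counts in the combination (3, 15, 7 and 21 counts). In the lead-in samples it had 17 counts, or 0.251%, in 11-1 and none in the other 3, where a count of 0 allows up to 1.30%, 0.429% and 0.232%. The difference was 0.109 points (exact permutation p = 0.667, adjusted p = 0.741). With 1 sample or number left out at a time, it ranged from 0.0293 (without sample 14-2) to 0.188 (without sample 14-1), and it was 0.0341 without number 14. With TRAV11N, which carries most of these counts, the shares were 0.810%, 0.458%, 0.809% and 1.31% against 0.435%, 0.571%, 2.48% and 0.387%, and the difference turned to -0.12 points. The leading TRAV11N TRAJ18 clonotype (15 residues) lay in all 4 numbers. Mucosal-associated invariant T chains, TRAV1 with TRAJ33, had 3 counts in 11-1 and none elsewhere, and no gamma or delta chain row was in the table used here.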

How the data were processed

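Per the labels' protocols, receptor libraries were made from RNA with a QIAseq Immune Repertoire kit of QIAGEN. The deposited table gives whole-number counts per chain, CDR3 amino acid sequence, V and J segment for each sample. The aligner, and the question of reads or molecules behind a count, are not given in the sources used. Per the submitters' processing notes the build is GRCh38, a human one, so no coordinates are given. Of 49519 combinations, 49343 with a CDR3 of the 20 standard letters were used, and the others held 0.0391% of the counts of the 8 samples. The table holds receptor chains only, so the tissue label could not be checked against marker genes.

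Measures were computed per sample and averaged over the parts of a number, then compared by exact two-sided permutation over numbers, with Benjamini-Hochberg adjustment over 10 measures. Segment counts were summed over parts and tested with edgeR 4.0.16 in R 4.3.3 (quasi-likelihood, the log of each chain's total as offset, 1 fit of the 10 brain numbers, segments reaching 10 counts in 2 or more of them), with DESeq2 1.42.0 as an alternative. Python 3.11.15 (pandas 2.3.3, numpy 2.4.6, scipy 1.17.1, matplotlib 3.10.9 for plots) gave all else. The code was tested on simulated data. Limits for a count of 0 are 3 counts of the total, and PCR copies would make counts less independent, so intervals cover counting error only.

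Named items were, by rule, segments past the threshold or else the 5 V and 3 J segments of lowest p, the 5 most used V segments of each chain, fixed segment families with TRBV1, TRBV19 and TRBV29, the 3 leading clonotypes of each number and chain, and the 5 most abundant clonotypes shared by at least 3 numbers. TRBV23 was named after its values were seen. Members and lists were chosen with earlier results of these data known.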

Additional observations from a re-analysis of the deposited data

Results flagged for a closer look

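Among 28 groups of 4 samples checked over 14 measures, 5 had a sample far from the other 3. The rule flags about 1 in 20 groups of independent, normally distributed values. Parts of a number are not independent and several measures overlap, so the 5 cannot be set against that rate. All 5 lay in the lead-in alone. Sample 11-1 had 6782 TRA counts, against 1292 in the next. It also had the only counts of TRAV11 or TRAV11D with TRAJ18 in its group, at 0.251% of TRA. With none in the other 3 the rule had to flag 11-1, and a count of 0 there allows up to 1.30%, 0.429% and 0.232%. With TRAV11N counted as well 11-1 had 2.48%, against 0.571% in the next. Sample 10-1 had a TRA concentration of 2.49%, against 0.846% in the next, and its 10 largest TRA clonotypes held 42.2% of the counts, against 19.7%. Sample 10-1 had 230 TRA counts, the fewest of the 8 samples.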

How the results depend on the processing

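No paired analysis was possible because the groups compared share no number. Of 341 values recomputed under alternatives, 306 kept their direction and side of the threshold, and 28 changed direction. For the 10 measures tested over numbers no p can fall below 0.333. Their side of the threshold was thus fixed in advance, and only their direction could change. Differences in counts, concentration, share of the 10 largest clonotypes and CDR3 length kept their direction under each alternative run. Log2 richness differences turned to -0.13 (TRB) and -0.087 (TRA) with parts summed, and ran from -0.048 to 0.52 and from -0.14 to 0.70 when samples or numbers were left out. The invariant natural killer T difference turned to -0.12 with TRAV11N counted. The mean TRB overlap of the parts was 63.7 points higher in the combination by the Morisita-Horn index and 32.5 points higher by the shared share of counts (the sum of the smaller share of each clonotype), and 62.2 and 57.0 points by 2 alternatives chosen after seeing the data, the unbiased Morisita index and the TRA chain. V segments called rose from 0 to 1 without the filter on low counts (TRAV7D-2), and J segments called ran from 0 to 1 when a number was left out.

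Log2 differences of TRBV19 turned to 0.0027 in DESeq2, 0.22 with TMM, 0.078 with each clonotype counted once and 0.13 without the largest clonotypes. With TMM, TRAV14-2V14N-2 turned to 0.16 and TRAV8-1V8D-1 to 0.27, and counted once to 0.26 and 0.27, where TRBV29 was -0.23 and TRBJ2-1 -0.016. Without the largest clonotypes TRBV29 was -0.86, TRAV16D/DV11V16N -0.42 and TRAJ49 -1.09. Leaving out a number moved TRBV3 from -0.11 to 0.56, TRBV19 from -0.47 to 0.62, TRBV29 from -1.01 to 1.11, TRAV14-2V14N-2 from -0.81 to 0.10, TRAV16D/DV11V16N from -0.90 to 1.68, TRAV15-1/DV6-1 from -7.10 to 3.98, TRBJ2-1 from 0.088 to 1.34 and TRAJ49 from -1.88 to 2.58. The number left in its group is then assumed to vary like the other groups. The cause was not tested. Depth limits number 10 most.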
